A study of Mus musculus with 6 samples.

Results

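The genes described here are 40 genes of the core autophagy machinery and its cargo receptors, measured in mouse macrophages. They were chosen by name, from the kinase complex that starts an autophagosome to the receptors that load it and the proteins that bring it to the lysosome. All 40 were found among the 25044 genes of the deposited count table. All reached the minimum of 60 counts summed over the 6 libraries (the lowest sum was 598, for Atg16l2), and all 40 were among the 11286 genes tested.

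The cells were thioglycollate-elicited peritoneal macrophages of wild type C57BL/6 mice aged 8 weeks, collected 3 days after the irritant and cultured for 24 h after they had adhered. One group of 3 libraries received vehicle (DMSO) and the other 3 received 100 nM trametinib, which blocks MEK1 and MEK2 upstream of ERK, each for 2 h before LPS at 100 ng/ml was added for 12 h. Every culture therefore received LPS, a ligand of TLR4, and the comparison addresses what MEK inhibition changed in LPS-treated cells. The labels give 3 mice for the study and do not say which animal or dish each library came from, so p-values measure only the spread between these libraries.

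Autophagy encloses cytoplasm in a membrane sac that closes and fuses with a lysosome. The ULK1 kinase complex starts the process, a lipid kinase complex around VPS34 and Beclin 1 marks the membrane with the lipid PI3P, and ubiquitin-like conjugation attaches proteins of the ATG8 family (LC3 and GABARAP) to the growing membrane, where cargo receptors such as p62 dock. In macrophages the pathway removes intracellular bacteria, damaged mitochondria and protein aggregates, and part of its machinery also attaches LC3 to phagosomes. Transcript levels are measured here; autophagic flux was not.

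Library totals ran from 17453778 to 19648467 counts. Mitochondrial genes took 1.76% of the counts of trametinib replicate 2 and 0.717 to 0.871% of the others. All 8 macrophage markers were tested, with a summed level of 15185 to 16975 CPM, counts scaled to the size of the library, in the vehicle libraries and 14049 to 15712 CPM in the trametinib libraries. Lyz2 made up most of this sum, and single markers moved in both directions: Adgre1 and Itgam fell (log2 fold changes −0.91 and −1.16, SE 0.10 and 0.33, adjusted p 0.000502 and 0.0437, the second called in 7 of 13 alternatives), Mertk rose (1.15, SE 0.12, adjusted p 0.000412) and the other 5 did not pass. Their part in the results was not tested. The summed markers of mast cells, neutrophils, T and NK cells, eosinophils, and mesothelial cells with fibroblasts each stayed below 8 CPM in every library, with a highest value of 7.69 CPM for neutrophils, and Retnlg, Mcpt4 and Msln were at 0 counts. The first principal component placed vehicle replicate 3 at −13.8, away from its fellow vehicle libraries at −32.0 and −31.2, while those given trametinib ran from 21.2 to 29.4. In bulk RNA, a change in the number of cells of a type and a change in RNA per cell cannot be told apart.

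Autophagy transcripts were more often higher than lower with trametinib. Of the 40 genes, 15 rose, 1 fell and 24 did not pass an adjusted p of 0.05 in edgeR's quasi-likelihood test. All 5 cargo receptors rose, as did the initiation genes Ulk1 and Atg13 and the LC3 genes Map1lc3a and Map1lc3b, and the gene that fell was Atg16l1. Over all 11286 genes tested, 34.3% were called, 15.8% higher and 18.4% lower, against 37.5% of the autophagy genes higher and 2.5% lower. The median log2 fold change was 0.21 over the 40 genes and −0.01 over all genes tested, and 31 of the 40 lay above 0, against 5558 of 11286. The rises were small: they ran from 1.18-fold to 2.19-fold with a median of 1.36-fold, and 5 of the 15 reached 1.5-fold.

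The libraries of the groups did not overlap in 24 of the 40 genes, which is 60% against 49.3% of all genes tested. The trametinib libraries were the higher ones in 22 of the 40 (55%, against 23.4% of all genes tested) and the lower ones in 2 of the 40 (5%, against 25.9%). Among the 15 genes that rose, vehicle replicate 3 was the highest of the vehicle libraries in 12, that is, nearest to the trametinib libraries. Over all 40 genes it was the highest in 23. Trametinib replicate 2, the library with the highest mitochondrial share, was the highest trametinib library in 8 of the 15 and in 20 of all 40. Vehicle replicate 3 was thus the highest in a larger share of the genes that rose than of all 40, which include them. For trametinib replicate 2 the share was similar in both sets. The part of this order and of the mitochondrial share in the rises was not tested. The count of genes that rose was 20 without vehicle replicate 3, 9 with any of vehicle replicate 1, vehicle replicate 2 or trametinib replicate 1 removed, 11 without trametinib replicate 2 and 16 without trametinib replicate 3. The share of all genes called higher moved too, to 19.3% without vehicle replicate 3 and to 9.3% without trametinib replicate 1. With the replicate number as a block, 18 of the 40 rose and 3 fell, and all 16 genes called without the block were among them.

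**Figure D1:**
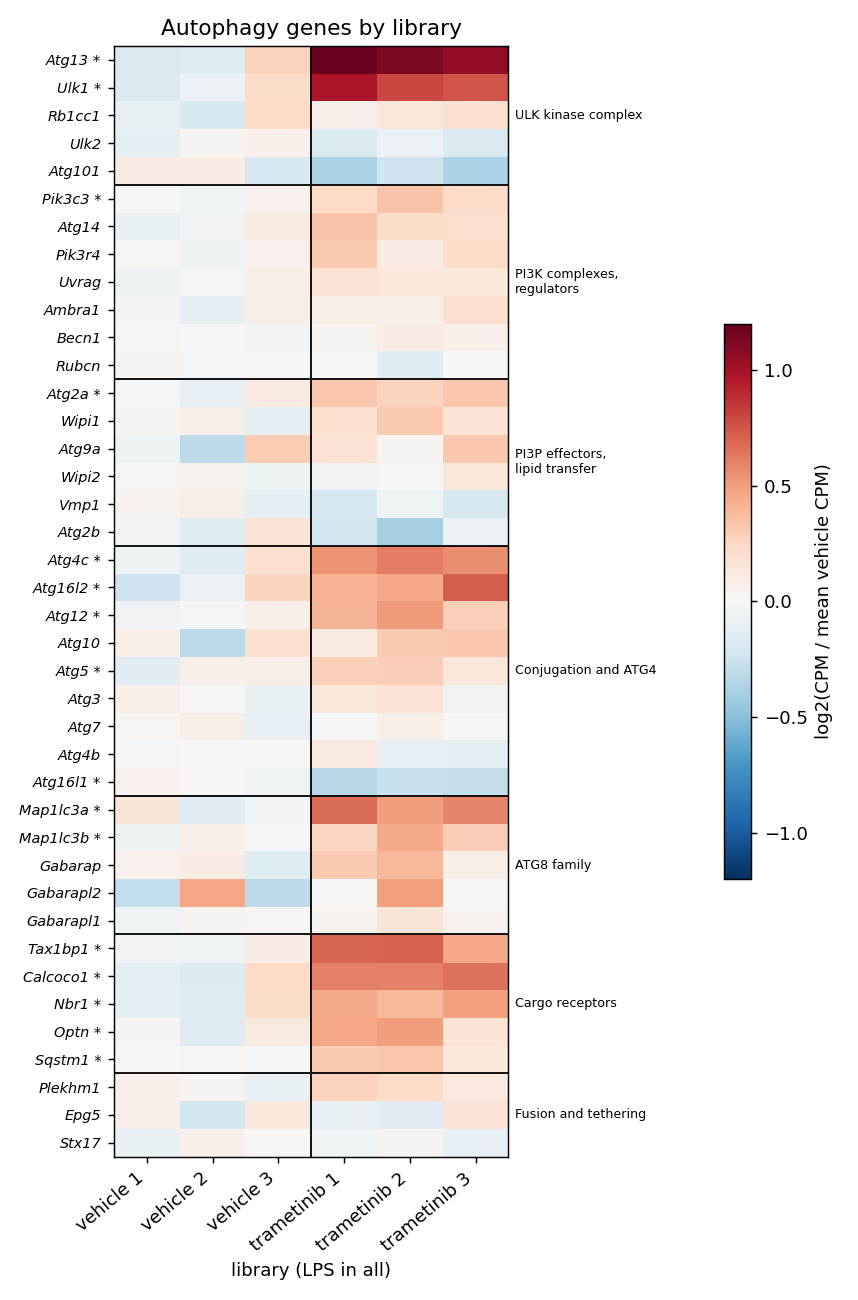
Heat map of the 40 autophagy genes (rows, by role; asterisks mark adjusted p under 0.05) in the 6 libraries (columns); colour is the log2 ratio of CPM to the mean of the vehicle libraries. Atg13 and Ulk1 have the strongest rises, and the cargo receptor rows are higher in all 3 trametinib libraries. Vehicle replicate 3 is the highest vehicle library in 12 of the 15 genes that rose and in 23 of all 40.

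The ULK kinase complex did not move as a unit. Atg13 and Ulk1 rose (40% of the 5 genes, against 15.8% of all genes tested), and the other 3 subunit genes did not pass. Atg13 encodes the adaptor that links the kinase to its scaffold (ENSMUSG00000027244, mm10 chromosome 2, 91674618 to 91710576). It stood at 46.9, 47.7 and 63.8 CPM in vehicle replicates 1, 2 and 3 and at 121.9, 115 and 110.6 CPM in trametinib replicates 1, 2 and 3. The lowest trametinib library thus lay far above the highest vehicle library, and the rise was 2.19-fold (log2 fold change 1.13, SE 0.12, adjusted p 0.000460), the only one of at least 2-fold among the 40 genes. Ulk1, the gene of the kinase itself (ENSMUSG00000029512, chromosome 5, 110784488 to 110810097), had 27.7, 29.8 and 36.5 CPM with vehicle and 62.0, 54.6 and 53.0 CPM with trametinib. Its groups did not overlap either, and it rose 1.80-fold (log2 fold change 0.85, SE 0.11, adjusted p 0.000895). Both calls held under each of the 13 alternative settings run.

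The partners of Ulk1 and Atg13 behaved differently. Ulk2, a kinase related to ULK1, had a mean of 22.5 ± 1.38 CPM with vehicle and 20.5 ± 0.888 CPM with trametinib (SD, n = 3 per group; log2 fold change −0.14, SE 0.08, adjusted p 0.226), with overlapping groups. Atg101, which stabilises ATG13, stood at 13.0, 13.0 and 10.6 CPM with vehicle and 9.40, 10.3 and 9.36 CPM with trametinib. Its groups did not overlap and it had an adjusted p of 0.0514 (log2 fold change −0.33, SE 0.11), which became 0.0356 with the replicate block and 0.0119 without vehicle replicate 3 (across settings 0.0119 to 0.163). Rb1cc1, the gene of the scaffold protein FIP200, had a log2 fold change of 0.13 (SE 0.11, adjusted p 0.394). Without vehicle replicate 3, its highest library at 44.0 CPM, the value for Rb1cc1 was 0.27 with an adjusted p of 0.0211 (across settings 0.0211 to 0.806).

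The sequences before the start sites of the genes with the strongest rises are shown because Atg13 and Ulk1 moved together. Each is the 250 bases before the RefSeq start (GRCm38.p6, the assembly of mm10), written 5′ to 3′ on the strand of the gene: chr2:91710593-91710842, minus strand, for Atg13 and chr5:110810082-110810331, minus strand, for Ulk1.
Atg13: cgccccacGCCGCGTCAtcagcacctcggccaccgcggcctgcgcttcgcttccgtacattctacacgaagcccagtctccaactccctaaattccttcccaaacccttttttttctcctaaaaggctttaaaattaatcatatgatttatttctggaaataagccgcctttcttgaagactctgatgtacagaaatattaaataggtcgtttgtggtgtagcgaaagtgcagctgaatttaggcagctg
Ulk1: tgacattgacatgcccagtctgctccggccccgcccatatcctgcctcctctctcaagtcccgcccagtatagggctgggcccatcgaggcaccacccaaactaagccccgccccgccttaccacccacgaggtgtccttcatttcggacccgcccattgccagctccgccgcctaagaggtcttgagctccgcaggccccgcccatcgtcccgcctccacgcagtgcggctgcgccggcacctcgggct
Capitals mark the matches to 6 motifs searched on both strands: CACGTG (the E-box core bound by TFEB and other basic helix-loop-helix factors), the CLEAR palindrome (a longer element that contains the E-box core), GTAAACA (bound by FOXO factors), TGACNNNGC (the core of the antioxidant response element), TGATGCAA (a composite of C/EBP and ATF factors) and TGAGTCA (bound by AP-1). Atg13 held 1 match, to TGACNNNGC on the opposite strand, and Ulk1 held none. RefSeq promoters were matched for 33 of the 40 genes, and Rb1cc1, Becn1, Pik3c3, Atg12, Atg16l1, Map1lc3a and Epg5 were not matched. TGACNNNGC occurred in 4 of the 33 (12.1%), against 11.5% of 27025 genes with promoters of the same length.

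The lipid kinase complex showed small differences. Pik3c3, the gene of the catalytic subunit VPS34, rose, and the other 6 genes of this group did not pass. The share that rose, 14.3%, lay near the 15.8% of all genes tested. Pik3c3 stood at 30.7, 29.7 and 31.8 CPM with vehicle and 36.3, 39.0 and 36.0 CPM with trametinib. The groups did not overlap, and the rise was 1.21-fold (log2 fold change 0.27, SE 0.07, adjusted p 0.0198). This call was lost with vehicle replicate 1 or 2 removed (adjusted p 0.0696 or 0.0836) or trametinib replicate 1 or 2 removed (0.0550 or 0.0626; across settings 0.0139 to 0.0836). Its log2 fold change stayed between 0.24 and 0.30 over the 6 removals.

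The subunits that accompany VPS34 had log2 fold changes above 0 without passing. Pik3r4, the gene of the regulatory subunit VPS15, had 32.6 ± 1.25 CPM with vehicle and 37.9 ± 2.86 CPM with trametinib (adjusted p 0.0661, and 0.0341 with the replicate block). Pik3r4 passed with vehicle replicate 3 removed (adjusted p 0.0488) and with trametinib replicate 2 removed (0.0425; across settings 0.0341 to 0.226). Atg14, which directs the complex to autophagosome formation, had 16.8 ± 1.11 and 20.1 ± 1.17 CPM (adjusted p 0.0534); its adjusted p was 0.0443 with median-ratio size factors, 0.0473 with the CPM filter (1 CPM or more in any 3 libraries) and 0.0250 without vehicle replicate 3 (across settings 0.0250 to 0.189). For Uvrag, the alternative partner of Beclin 1 in endosomal traffic, the log2 fold change was 0.14 (SE 0.06, adjusted p 0.108, and 0.0348 without vehicle replicate 3; across settings 0.0348 to 0.317).

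Ambra1, a Beclin 1 regulator, had the highest length-scaled level in the group, at 11.8 CPM per kilobase of merged exon against 10.6 for Becn1. In CPM, Becn1 was the higher with vehicle (73.5 against 69.5), and its merged exons are longer (7065 bases against 6122). The order per length thus rests on the lengths used. Ambra1 stood at 71.0, 64.5 and 73.2 CPM with vehicle and 73.0, 72.3 and 80.2 CPM with trametinib. These overlapped (log2 fold change 0.11, SE 0.07, adjusted p 0.271). Becn1, the gene of Beclin 1, had 73.5 ± 1.32 CPM with vehicle and 76.8 ± 1.54 CPM with trametinib (log2 fold change 0.06, SE 0.06, adjusted p 0.438), and Rubcn, which encodes the inhibitor Rubicon of the UVRAG complex, had 40.6 ± 0.893 and 39.3 ± 2.19 CPM (log2 fold change −0.05, SE 0.07, adjusted p 0.629). Counts of Becn1, Rubcn and Uvrag are uncertain. Becn1 shares 3104 exon bases (43.9% of its exons) with Cntd1 on the opposite strand, and Rubcn shares 171 (2.29%) with Fyttd1. Summed counts were 16 for Cntd1 against 8096 for Becn1, and 3380 for Fyttd1 against 4303 for Rubcn. Uvrag shares 1589 exon bases (17.6%) with Gm45187 on the opposite strand. A stretch of Uvrag also matches transcripts of other genes, such as Klhl20, at 95% identity or more over at least 200 bases.

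Among the PI3P effectors and lipid transfer proteins, Atg2a rose and the other 5 did not pass. This share of 16.7% also lay near the 15.8% of all genes tested. Atg2a encodes a protein that carries lipids into the growing sac. It had 35.8, 34.1 and 39.4 CPM with vehicle and 45.5, 44.0 and 45.9 CPM with trametinib, without overlap (1.24-fold, log2 fold change 0.31, SE 0.08, adjusted p 0.0142). The adjusted p of Atg2a was 0.0601 or 0.0644 when vehicle replicate 1 or 2 was removed and 0.0561 when trametinib replicate 1 was (across settings 0.00307 to 0.0644). Its paralog Atg2b had 20.9 ± 2.48 CPM with vehicle and 17.9 ± 1.99 CPM with trametinib (log2 fold change −0.22, SE 0.12, adjusted p 0.169, and 0.0463 with the replicate block; across settings 0.0463 to 0.453). The log2 fold change of Atg2a stayed between 0.26 and 0.37 over the 6 removals. Exons of Atg2b share 383 bases with Gskip (3018 summed counts against 2087 for Atg2b) on the opposite strand, so part of the Atg2b counts is uncertain.

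Vmp1, a scramblase gene of the endoplasmic reticulum and the most abundant of this group per length, stood at 210, 213 and 188 CPM with vehicle and 177, 196 and 179 CPM with trametinib. The groups overlapped (log2 fold change −0.15, SE 0.08, adjusted p 0.207). Wipi1 and Wipi2, which encode PI3P-binding propellers, had log2 fold changes of 0.22 and 0.03 (SE 0.12 and 0.08, adjusted p 0.191 and 0.758). Atg9a, the gene of the transmembrane protein of the seed vesicles, had 38.7 CPM in vehicle replicate 3 against 30.2 and 25.3 CPM in the other vehicle libraries. It shares 1832 exon bases (31.8% of its exons) with Gm29253 on the same strand and 46 (0.798%) with Ankzf1 on the opposite strand, which leaves its counts uncertain. Its log2 fold change was 0.18 (SE 0.15, adjusted p 0.403), and 0.36 with an adjusted p of 0.0250 without vehicle replicate 3 (across settings 0.0250 to 0.833).

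The conjugation genes held the one fall. Of these 9 genes 4 rose (44.4%, against 15.8% of all genes tested) and 1 fell (11.1%, against 18.4%). ATG12 is attached to ATG5, and this pair binds ATG16L1 to form the ligase that attaches LC3 to lipid. Atg12 and Atg5 rose while Atg16l1 fell. Atg12 stood at 68.1, 69.5 and 73.1 CPM with vehicle and 93.4, 100 and 85.8 CPM with trametinib, and rose 1.32-fold (log2 fold change 0.41, SE 0.07, adjusted p 0.00343). Atg5 stood at 61.0, 69.9 and 70.6 CPM with vehicle and 81.9, 82.2 and 74.0 CPM with trametinib, the smallest called rise (1.18-fold, log2 fold change 0.24, SE 0.08, adjusted p 0.0432). The Atg5 call was lost with DESeq2 (0.0517) and limma-voom (0.0524) and with vehicle replicate 1 or 2 (0.165 or 0.0759) or trametinib replicate 1 or 2 (0.153 or 0.135) removed (across settings 0.0190 to 0.165). Its log2 fold change ran from 0.18 to 0.29 over the 6 removals.

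Atg16l1 (ENSMUSG00000026289, chromosome 1, 87755870 to 87792428) had 56.0, 53.8 and 51.9 CPM with vehicle and 42.7, 44.9 and 44.3 CPM with trametinib. All 3 trametinib libraries lay below all 3 vehicle libraries, and Atg16l1 fell (log2 fold change −0.29, SE 0.07, adjusted p 0.00943). Its adjusted p was 0.0531 without vehicle replicate 1 and 0.0522 without trametinib replicate 1 (across settings 0.00516 to 0.0531). Its log2 fold change stayed between −0.32 and −0.26 over the 6 removals. The paralog Atg16l2 was the least abundant of the 40 genes, at 3.81, 4.30 and 5.46 CPM with vehicle and 6.03, 6.23 and 7.46 CPM with trametinib. It rose 1.45-fold (log2 fold change 0.54, SE 0.17, adjusted p 0.0350). Vehicle replicate 3 was the one library without which the Atg16l2 call held: removing vehicle replicate 1 or 2 gave an adjusted p of 0.127 or 0.106, and removing trametinib replicate 1, 2 or 3 gave 0.0661, 0.0695 or 0.102 (across settings 0.00663 to 0.127). Over the 6 removals its log2 fold change ran from 0.43 to 0.70. Its exons share 25 bases with Fchsd2, a gene on the opposite strand with 5162 summed counts against 598 for Atg16l2.

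Of the enzymes that process ATG8 proteins, Atg4c rose and Atg4b did not pass. Atg4c, the gene of an ATG4 protease, stood at 20.5, 19.3 and 24.5 CPM with vehicle and 31.2, 32.8 and 31.6 CPM with trametinib. The groups did not overlap and the rise was 1.49-fold (log2 fold change 0.57, SE 0.10, adjusted p 0.00303). Atg4b, which encodes the main LC3-cleaving protease, had 36.4 ± 0.213 and 35.7 ± 3.18 CPM (adjusted p 0.800). The E1-like and E2-like enzyme genes Atg7, Atg3 and Atg10 had log2 fold changes of 0.02, 0.09 and 0.25 (SE 0.07, 0.08 and 0.15, adjusted p 0.834, 0.405 and 0.217), and their groups overlapped.

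The E-box core CACGTG lay before the start of 4 of the 33 genes whose promoters were searched (12.1%), against 6.86% of the 27025 genes. It was in 1 of the 12 searched genes that rose and 3 of the 21 other searched genes. These 4 genes are too few to tie the motif to a role group. Stretches of 60 bases around the matches are shown so that their flanks can be compared, with CACGTG in capitals, 5′ to 3′ on the strand of the gene in GRCm38.p6: chr16:45158708-45158767 (plus) for Atg3, chr10:44268279-44268338 (plus) for Atg5, chr6:114670937-114670996 (plus) for Atg7 and chr16:32868422-32868481 (minus) for Rubcn.
Atg3: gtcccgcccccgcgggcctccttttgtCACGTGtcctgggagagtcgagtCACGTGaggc
Atg5: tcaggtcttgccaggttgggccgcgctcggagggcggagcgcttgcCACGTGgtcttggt
Atg7: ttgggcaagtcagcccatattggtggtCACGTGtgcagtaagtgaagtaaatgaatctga
Rubcn: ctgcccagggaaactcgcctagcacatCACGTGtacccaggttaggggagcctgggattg
Atg3 held CACGTG in 2 places, starting 94 and 71 bases before the RefSeq start. The other matches began 14 bases before the start in Atg5, 132 in Atg7 and 88 in Rubcn; the starts of Atg7 and Rubcn are alternative ones that lie inside the annotated gene. None of the 33 promoters held the CLEAR palindrome, GTAAACA, TGATGCAA or TGAGTCA, which occurred in 0.27%, 3.54%, 0.92% and 5.16% of the genes.

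All 5 genes of the ATG8 family had log2 fold changes above 0, and the LC3 genes rose while those of the GABARAP branch did not pass. The share that rose was 40%, against 15.8% of all genes tested. The difference between the branches was not tested. Map1lc3a stood at 11.8, 9.77 and 10.4 CPM with vehicle and 16.97, 15.0 and 16.0 CPM with trametinib (1.501-fold, log2 fold change 0.59, SE 0.10, adjusted p 0.00325). Map1lc3b, which encodes the LC3 form most used as an autophagosome marker, stood at 82.4, 89.8 and 85.2 CPM with vehicle and 102.4, 117 and 105.4 CPM with trametinib (1.26-fold, log2 fold change 0.34, SE 0.07, adjusted p 0.00749). The groups of both genes did not overlap, and both calls held under the 13 alternatives.

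Gabarap was the most abundant ATG8 gene per length, at 221 ± 19.1 CPM per kilobase of exon with vehicle, against 11.4 ± 0.493 for Map1lc3b and 9.02 ± 0.869 for Map1lc3a on the same scale. It stood at 423, 434 and 368 CPM with vehicle and 507, 534 and 428 CPM with trametinib. Vehicle replicate 2 and trametinib replicate 3 overlapped by a few CPM (log2 fold change 0.26, SE 0.10, adjusted p 0.0831). Gabarap had an adjusted p of 0.00748 with the replicate block and 0.0245 without trametinib replicate 3 (across settings 0.00748 to 0.232). Gabarapl1 had 70.8 ± 2.02 and 74.8 ± 3.22 CPM (adjusted p 0.362). It shares 570 exon bases (28.3% of its exons) with 1700101I11Rik (12 summed counts) on the opposite strand, so part of its counts is uncertain. Gabarapl2 was high in replicate 2 of either group, at 23.7 and 24.1 CPM against 13.8 to 17.3 CPM in the other 4 libraries (log2 fold change 0.18, SE 0.25, adjusted p 0.607). Transcripts of 3 other annotated genes (Gm3724, Gm5829 and Gm6051) match Gabarapl2 at 95% identity or more over at least 200 bases, so its counts are uncertain.

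The 5 cargo receptor genes rose with trametinib, and in each of them the lowest trametinib library exceeded the highest vehicle library. Of all genes tested, 15.8% were called higher and 23.4% had all trametinib libraries above all vehicle libraries. Tax1bp1, whose product binds ubiquitinated cargo and also restrains NF-kappaB signalling (ENSMUSG00000004535, chromosome 6, 52713729 to 52766780), stood at 468, 464 and 511 CPM with vehicle and 783, 787 and 666 CPM with trametinib. The rise was 1.55-fold (log2 fold change 0.63, SE 0.09, adjusted p 0.00121). Calcoco1, a receptor gene for the endoplasmic reticulum and Golgi, had 14.6, 14.1 and 18.8 CPM with vehicle and 24.1, 24.1 and 24.9 CPM with trametinib (1.54-fold, log2 fold change 0.62, SE 0.11, adjusted p 0.00361). Nbr1, which forms condensates of ubiquitinated proteins with p62, had 83.3, 81.1 and 104.5 CPM with vehicle and 123, 118 and 126 CPM with trametinib. It rose 1.36-fold (log2 fold change 0.45, SE 0.10, adjusted p 0.00826), and the calls of Tax1bp1, Calcoco1 and Nbr1 held under the 13 alternatives.

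Optn and Sqstm1 rose as well, with calls that were lost when any of 4 libraries was removed, while the fold changes stayed close to their values over all libraries. Optn, the gene of optineurin, a receptor for bacteria and damaged mitochondria, stood at 62.6, 54.8 and 65.7 CPM with vehicle and 84.4, 86.5 and 68.4 CPM with trametinib. It rose 1.31-fold (log2 fold change 0.39, SE 0.10, adjusted p 0.0211), with trametinib replicate 3 just above vehicle replicate 3. With vehicle replicate 1 or 2 removed the adjusted p of Optn was 0.0561 or 0.0763, and with trametinib replicate 1 or 2 removed it was 0.0886 or 0.0816, with log2 fold changes of 0.31 to 0.49 over the 6 removals (across settings 0.00599 to 0.0886). Sqstm1, the gene of p62 (ENSMUSG00000015837, chromosome 11, 50199366 to 50210827), was the most abundant of the 40 genes per length, at 442 ± 7.14 CPM per kilobase of exon with vehicle. Its libraries stood at 1490, 1501 and 1455 CPM with vehicle and 1843, 1865 and 1613 CPM with trametinib, a rise of 1.197-fold (log2 fold change 0.26, SE 0.08, adjusted p 0.0323). Removing vehicle replicate 1 or 2 gave an adjusted p of 0.0992 or 0.0947, and removing trametinib replicate 1 or 2 gave 0.135 or 0.126, with log2 fold changes of 0.23 to 0.32 over the 6 removals (across settings 0.00835 to 0.135). Exons of Sqstm1 share 580 bases (17.3%) with Mrnip (15 summed counts) on the opposite strand, so part of the Sqstm1 counts is uncertain.

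Of the 3 genes that bring autophagosomes to lysosomes, none passed, against 34.3% of all genes tested. Plekhm1, an adaptor gene that joins RAB7, LC3 and the HOPS tether, was the most abundant of the 3 per length. It stood at 155, 152 and 140 CPM with vehicle and 181, 175 and 162 CPM with trametinib. Its groups did not overlap (log2 fold change 0.21, SE 0.08, adjusted p 0.0647). The adjusted p of Plekhm1 was 0.0165 with the replicate block, 0.0482 with the CPM filter and 0.0411 without trametinib replicate 3 (across settings 0.0165 to 0.207). Stx17, the autophagosomal SNARE gene, and Epg5, a tether gene, had log2 fold changes of −0.04 and −0.02 (SE 0.08 and 0.12, adjusted p 0.756 and 0.920).

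**Figure D2:**
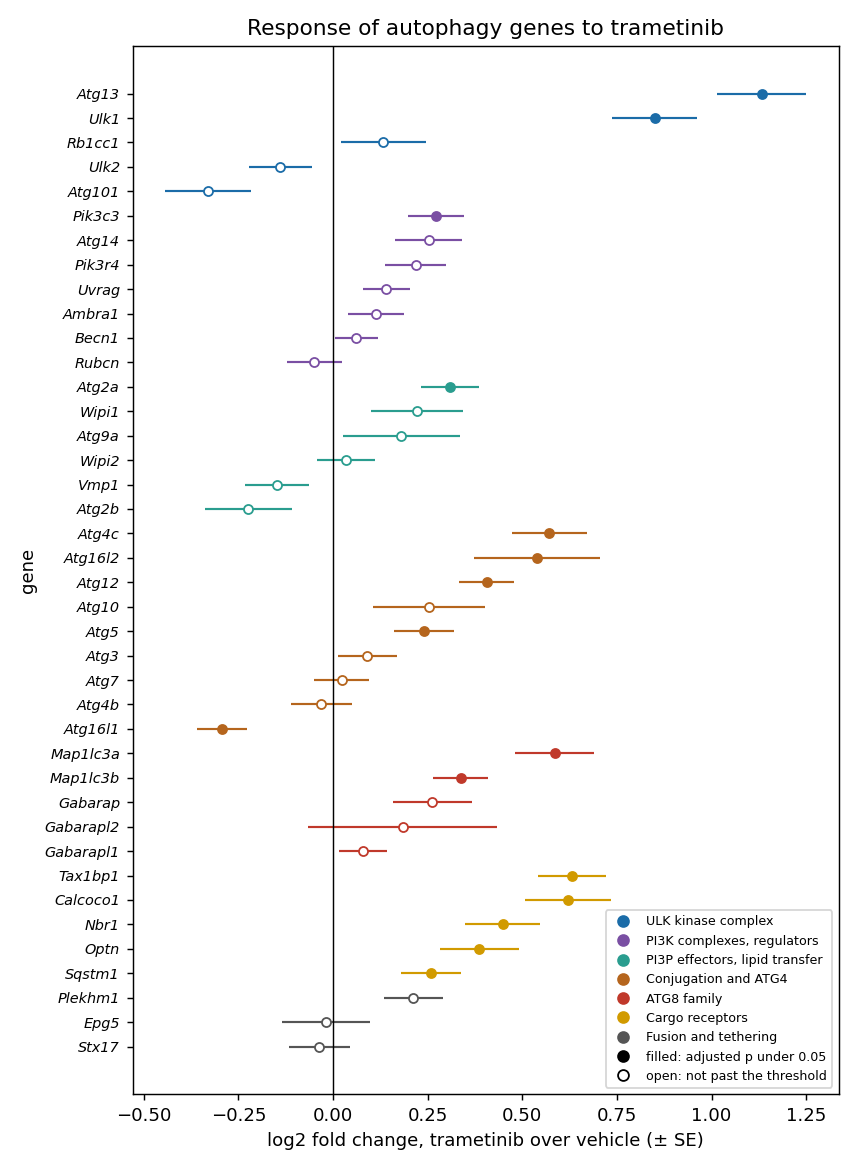
Log2 fold change of trametinib over vehicle with its SE (horizontal axis) for the 40 autophagy genes (vertical axis, by role); filled points passed an adjusted p of 0.05. The 5 receptor points are all filled and above 0, the ULK complex spreads from −0.33 to 1.13, and Atg16l1 is the one filled point below 0.

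Levels set per length spanned a wide range. After Sqstm1 came Gabarap, then Tax1bp1 at 48.2 ± 2.61 and Vmp1 at 52.7 ± 3.63 CPM per kilobase with vehicle, which changed places with trametinib, where Tax1bp1 stood at 74.6 ± 6.89 and Vmp1 at 47.6 ± 2.76. With vehicle their libraries overlapped, and with trametinib they did not. Gabarapl1 followed at 35.2 ± 1.00 with vehicle, then Atg5 at 28.6 ± 2.27 and Plekhm1 at 25.0 ± 1.39. At the other end stood Atg2b at 1.55 ± 0.184, Wipi1 at 1.31 ± 0.0930 and Atg16l2 at 0.534 ± 0.0997 CPM per kilobase. With trametinib, Atg13 went from 12.1 ± 2.17 to 26.5 ± 1.30 on this scale. Lengths are merged exons of all annotated transcripts, which can exceed the length of the transcripts present. In CPM without length, Tax1bp1 already stood above Vmp1 with vehicle (481 ± 26.1 against 204 ± 14.0). Their order per length with vehicle thus rests on the lengths used, 9991 and 3862 bases.

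**Figure D3:**
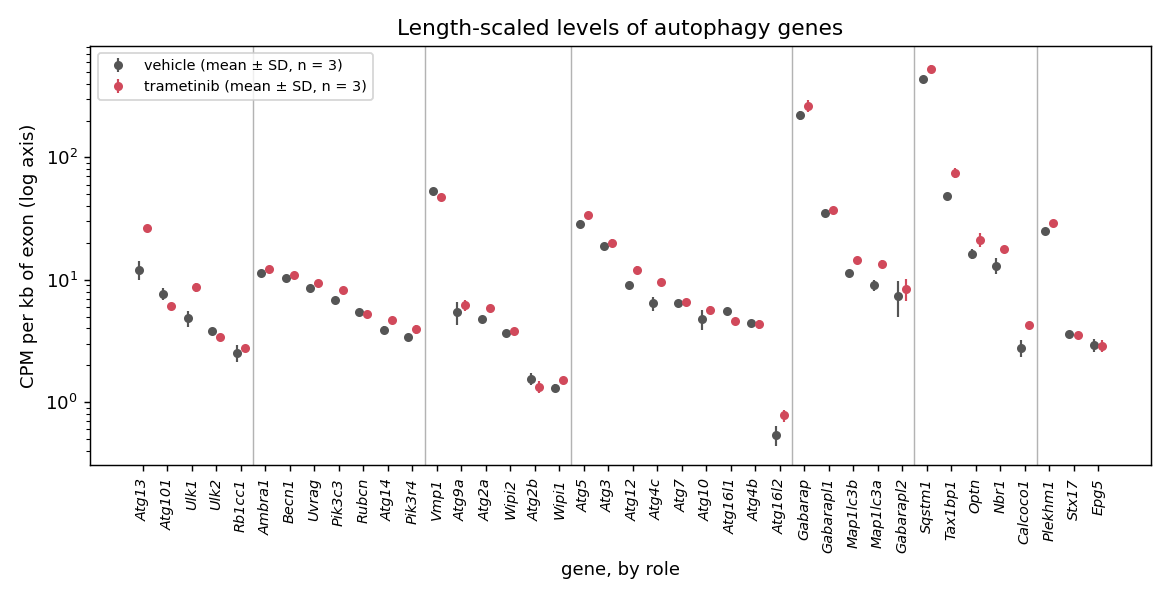
Length-scaled level, CPM per kilobase of merged exon on a log axis, as mean and SD of 3 libraries for vehicle and trametinib, by role. Sqstm1 at 442 and Gabarap at 221 with vehicle stand above the rest, and Atg16l2 at 0.534 is lowest.

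Ratios within a library do not depend on how libraries are scaled, and 9 pairs of related genes were compared this way by an exact two-sided permutation test, for which 3 against 3 libraries allow no p below 0.10. The groups did not overlap in 4 of the 9 pairs. Of all single genes tested, 49.3% did not overlap, and no such share was computed for ratios of other gene pairs. The count ratio of Ulk1 to Ulk2 was 1.32, 1.29 and 1.55 with vehicle and 3.11, 2.54 and 2.65 with trametinib, a difference of 1.00 on the log2 scale (SE 0.12, exact permutation p 0.10, adjusted over the 9 pairs 0.225). The ratio of Atg2a to Atg2b was 1.75 ± 0.0766 with vehicle and 2.54 ± 0.229 with trametinib (log2 difference 0.53, SE 0.08). That of Atg4b to Atg4c was 1.72 ± 0.206 and 1.12 ± 0.121 (log2 difference −0.61, SE 0.13), and that of Atg16l1 to Atg16l2 was 12.2 ± 2.60 and 6.74 ± 0.701 (log2 difference −0.84, SE 0.20). These 3 pairs had the same p as Ulk1 and Ulk2, the smallest the design can give.

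In the other 5 pairs the groups overlapped. The ratio of Map1lc3a to Map1lc3b was 0.125 ± 0.0172 with vehicle and 0.149 ± 0.0189 with trametinib (exact permutation p 0.20), and that of Sqstm1 to Nbr1 was 16.8 ± 2.48 and 14.5 ± 1.58 (exact permutation p 0.30). Gabarapl1 and Gabarapl2 relative to Gabarap had log2 differences of −0.18 and −0.05 (SE 0.11 and 0.25), and Wipi1 relative to Wipi2 one of 0.19 (SE 0.09). Compared within the same replicate number, 4 of these 5 ratios differed in one direction in all 3 numbers: Map1lc3a to Map1lc3b and Wipi1 to Wipi2 were higher with trametinib, and Gabarapl1 to Gabarap and Sqstm1 to Nbr1 were lower. A paired exact test of 3 numbers cannot give a p below 0.25.

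**Figure D4:**
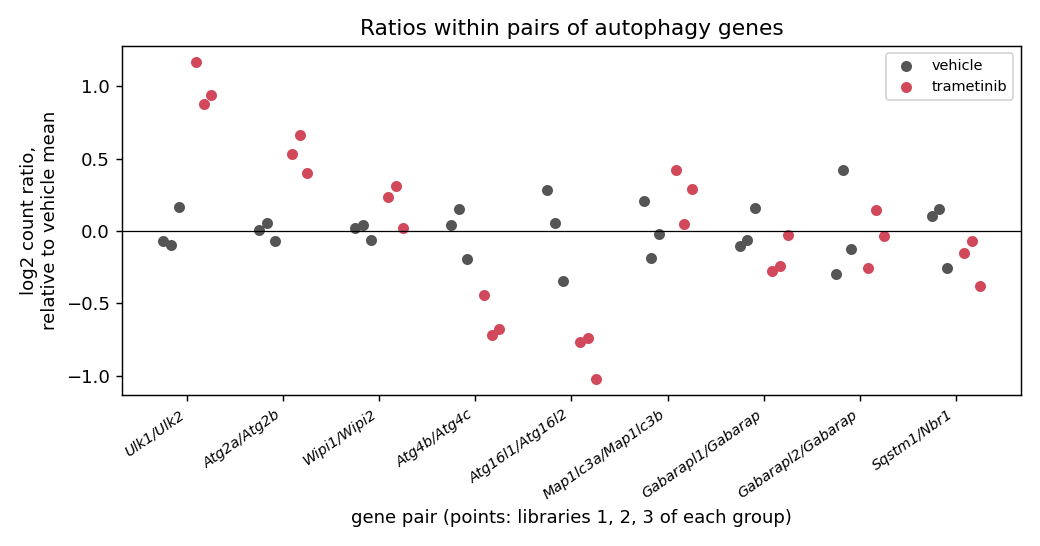
Log2 count ratio of 9 gene pairs in each library, relative to the mean of the vehicle libraries (vertical axis); points are single libraries in the order 1, 2, 3. Trametinib points of Ulk1/Ulk2 and Atg2a/Atg2b lie above, and those of Atg4b/Atg4c and Atg16l1/Atg16l2 below, every vehicle point of the pair.

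Of 59 further genes of the pathway, 55 were tested, and 14 rose, 9 fell and 32 did not pass, with a median log2 fold change of −0.02. These are 25.5% higher and 16.4% lower, against 15.8% and 18.4% of all genes tested, so the share that fell lay near that of all genes. With the replicate block 16 rose and 10 fell, the added calls being Smcr8, Rab7 and Fkbp8 (adjusted p 0.0227, 0.0113 and 0.0406). Of 16 tested receptors and regulators of selective autophagy, 7 rose (43.8%) and 3 fell (18.8%). Bnip3 and Bnip3l, genes of mitochondrial receptors, rose from 8.46 ± 0.215 to 18.3 ± 2.73 CPM and from 80.1 ± 7.92 to 145 ± 16.1 CPM (adjusted p 0.000459 and 0.000574). Pink1, the gene of a kinase that marks damaged mitochondria, rose 1.64-fold (adjusted p 0.00178), and Ncoa4, a ferritin receptor gene, rose 1.91-fold (adjusted p 0.00646). Ncoa4 stood at 547 CPM in vehicle replicate 3 against 340 and 358 CPM in the other vehicle libraries.

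Wdfy3, Retreg1 and Phb2 made up the falls in that list. Wdfy3, the gene of a large scaffold for aggregate clearance, fell to 57.2 ± 14.9 CPM from 152 ± 5.33 CPM with vehicle (a log2 change of −1.40, SE 0.17, adjusted p 0.00139), Retreg1, an endoplasmic reticulum receptor gene, from 32.7 ± 2.56 to 20.2 ± 4.30 CPM (adjusted p 0.00709) and Phb2, of the inner mitochondrial membrane, from 66.4 ± 4.88 to 41.9 ± 3.61 CPM (adjusted p 0.000875). Among 14 tested partners of the core machinery 5 rose and 2 fell, with Trp53inp1, Trp53inp2 and Wdr45 at 1.68-fold, 1.51-fold and 1.54-fold (adjusted p 0.00129, 0.0217 and 0.0351). Among 12 genes of fusion 2 rose and 1 fell, none by 1.5-fold. The shares higher were 35.7% of the partners and 16.7% of the fusion genes, against 15.8% of all genes tested, which the fusion share lay near. The shares lower were 14.3% of the partners and 8.3% of the fusion genes. Of 13 upstream genes of mTORC1 and AMPK none rose and 3 fell (23.1%, against 18.4% of all genes tested), of which Prkaa2 changed by 1.5-fold or more, from 1.09 ± 0.0675 to 0.575 ± 0.146 CPM (adjusted p 0.0451). The calls of Trp53inp2, Wdr45 and Prkaa2 were lost in some alternatives (adjusted p up to 0.0786, 0.129 and 0.165).

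**Figure D5:**
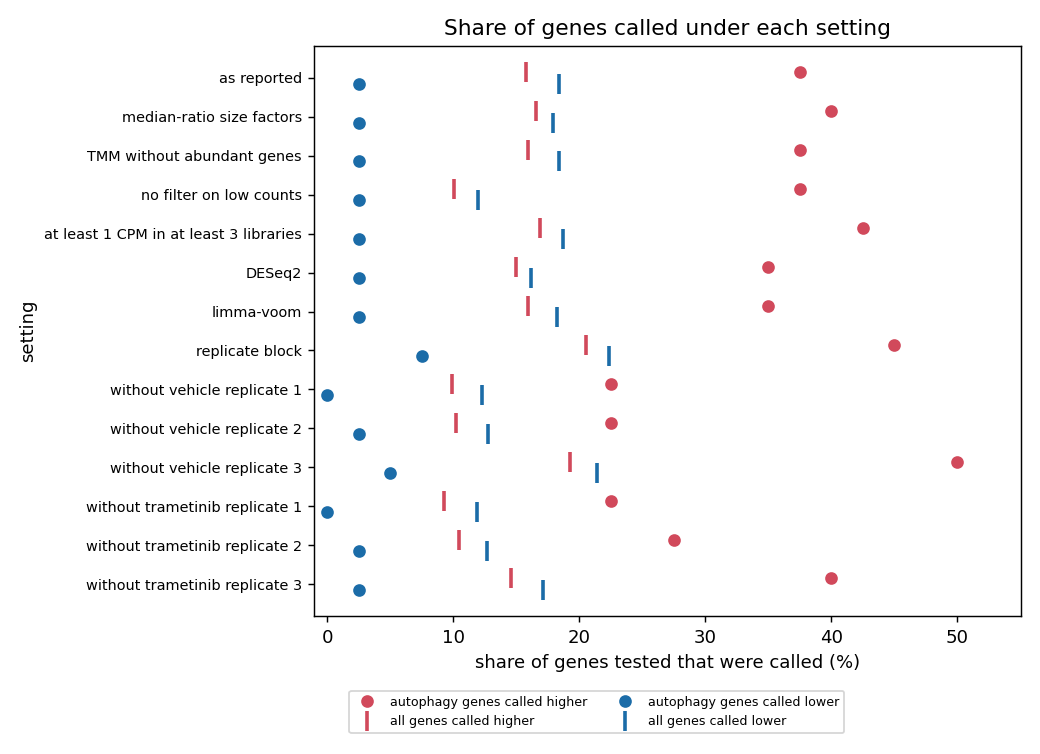
Share of genes tested that were called higher (red) or lower (blue) under each setting, for the autophagy genes (points) and all genes tested (ticks), in percent. Under each of the 14 settings the red point lies to the right of the red tick and the blue point to the left of the blue tick; without vehicle replicate 3 the autophagy genes called higher reach 50% and without trametinib replicate 1 they are 22.5%.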

How the data were processed

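RNA of rRNA-depleted libraries was sequenced in 3 vehicle and 3 trametinib libraries. The authors deposited 1 table of raw counts per gene; per the submitters' processing notes the tools included featureCounts 1.6.4, HISAT2 2.1.0, R 3.6.0 and DESeq2 1.24.0, with build mm10. The sources used here do not give the annotation, the strand setting or the handling of multiply mapped reads, so exons shared with a gene on the opposite strand (14 of the 40 genes) leave counts less certain.

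Of 25354 table entries, 310 repeats with identical values were dropped, leaving 25044 genes, 25033 of them in GENCODE M21, which gave symbols, positions and merged exon lengths. The labels set the groups. Genes kept by filterByExpr were scaled by TMM and tested with edgeR 4.0.16 (quasi-likelihood, robust, group as the only term, Benjamini-Hochberg over 11286 genes, threshold 0.05). Each SE was taken as the absolute log2 fold change divided by the root of F; CPM use TMM-scaled sizes. On simulated data it recovered 22 of 49 genes changed 1.5-fold and 42 of 47 changed 2-fold among 11192, and called 13 of 10998 unchanged ones.

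Same-numbered libraries deviated together from their group means (correlations across genes of 0.355, 0.435 and 0.319, against −0.0777 to −0.284 for different numbers). Deviations from a group mean cancel within the group, so part of the negative values is forced. A pairing by number is therefore inferred from the data and not stated by the labels. The main fit did not use it, and the block was run as an alternative. Others were median-ratio size factors, TMM without the 10 most abundant and mitochondrial genes, no filter, a CPM filter, DESeq2 1.42.0, limma-voom (limma 3.58.1) and each library left out. The genes, lists, pairs and motifs were chosen with earlier results of these data known. Values per library are given for each gene called and for the most abundant of each role; further pathway genes are named where called with at least 1.5-fold change. Software was SciPy 1.17.1, matplotlib 3.10.9, pandas 2.3.3 and NumPy 2.4.6 under Python 3.11.15, and R 4.3.3.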

Additional observations from a re-analysis of the deposited data

How the results depend on the processing

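The direction of the 16 called genes held under all 13 alternatives, and 9 of them were called in each; Sqstm1, Optn, Pik3c3, Atg5, Atg2a, Atg16l1 and Atg16l2 lost the call in at least 1. With single libraries left out, the genes called over the whole table numbered 2428 to 4663, the autophagy genes higher 9 to 20 and those lower 0 to 2; the highest of each count came without vehicle replicate 3, and the cause was not tested. With the replicate block, 18 autophagy genes were higher and 3 lower: Pik3r4, Gabarap, Plekhm1, Atg101 and Atg2b gained a call and no other call changed. Signs turned in 5 genes that did not pass. With single libraries left out, log2 fold changes ran from −0.074 to 0.0012 for Rubcn, −0.019 to 0.072 for Wipi2, −0.10 to 0.0090 for Atg4b, −0.025 to 0.059 for Atg7 and −0.12 to 0.053 for Epg5, and the log2 difference of the Gabarapl2 to Gabarap ratio from −0.20 to 0.16. Of the simulated 1.5-fold changes 22 of 49 were recovered. The simulation left 10998 of 11192 genes unchanged, whereas 3869 of 11286 were called in the data. Its adjusted p threshold was therefore stricter, and its recovery cannot be carried over to these genes. Small changes can still be missed at 3 libraries per group.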
